A study of Rattus norvegicus with 40 samples.

Results

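The genes described here are 5 stress genes, named Hspa5, Xbp1, Ddit3, Hspb1 and Hspa8, measured by RNA-Seq in 2 skeletal muscles of aging male Wistar rats. They were taken by their Ensembl identifiers, which were ENSRNOG00000018294, ENSRNOG00000010298, ENSRNOG00000006789, ENSRNOG00000023546 and ENSRNOG00000034066 in that order, out of 32545 genes in the count table, and all 5 had counts in every library. Gastrocnemius (hind limb, calf) and triceps (fore limb) were each sequenced from 10 rats at 20 months and from 10 other rats at 22 months, which gave 40 libraries in 4 groups of 10 and 1 library per muscle and animal. Sarcopenia is the loss of muscle mass and strength in old age; the study counts the younger group as early sarcopenic and the older as sarcopenic, and male Wistar rats are known to develop a neuropathy of the hind limbs at such ages. No agent or genetic change was applied, all animals were of 1 sex and strain, and both ages were old, so no young adult level stands beside these values. The libraries held polyadenylated RNA of whole muscle, and in such bulk tissue fewer cells of a type and less RNA per cell cannot be told apart.

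Proteins that cross the endoplasmic reticulum (ER) are folded with the help of chaperones. When unfolded protein builds up in the ER, membrane sensors start the unfolded protein response, which raises chaperone genes through transcription factors and, if stress lasts, genes of cell death. Proteins of the cytosol are served by the heat shock system, whose master factor HSF1 binds heat shock elements in front of its target genes. Hspa5 encodes BiP, the main Hsp70 chaperone of the ER lumen and the negative regulator of the stress sensors. Xbp1 encodes a transcription factor of the unfolded protein response, and its messenger is spliced by the sensor IRE1 to give the active form. Ddit3 encodes CHOP, a transcription factor induced late in ER stress and linked to apoptosis. Hspb1 encodes Hsp27 (Hsp25 in rodents), a small heat shock protein that binds unfolding proteins and protects actin and desmin filaments in muscle. Hspa8 encodes Hsc70, the constitutive Hsp70 chaperone of the cytosol, which also serves chaperone-mediated autophagy. Gene counts do not separate the spliced from the unspliced Xbp1 messenger, nor do they show protein.

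Known motifs of both stress responses were sought in front of the genes. RefSeq's promoter table for the rat genome GRCr8 held all 5 of 5 genes by symbol, and the 250 bases before each annotated start were searched on both strands. Windows of 4 genes are printed, 5′ to 3′ on the strand of the gene, because each held at least 1 of the searched motifs. Capitals mark the matches: the ER stress response element and the core of the unfolded protein response element in Hspa5 (chr3:38452766-38453015, plus strand), the ER stress response element in Xbp1 (chr14:84604373-84604622, plus strand), and heat shock element dimers in Hspb1 (chr12:26432302-26432551, minus strand) and Hspa8 (chr8:50080264-50080513, plus strand).
Hspa5: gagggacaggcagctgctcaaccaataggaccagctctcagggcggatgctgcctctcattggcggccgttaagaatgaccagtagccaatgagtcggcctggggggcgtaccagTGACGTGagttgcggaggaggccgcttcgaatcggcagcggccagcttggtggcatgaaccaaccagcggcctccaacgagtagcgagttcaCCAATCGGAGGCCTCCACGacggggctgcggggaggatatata
Xbp1: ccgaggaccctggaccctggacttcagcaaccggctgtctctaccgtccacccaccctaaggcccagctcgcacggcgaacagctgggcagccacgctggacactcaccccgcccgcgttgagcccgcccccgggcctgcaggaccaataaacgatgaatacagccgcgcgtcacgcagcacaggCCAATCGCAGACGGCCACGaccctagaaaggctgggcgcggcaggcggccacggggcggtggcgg
Hspb1: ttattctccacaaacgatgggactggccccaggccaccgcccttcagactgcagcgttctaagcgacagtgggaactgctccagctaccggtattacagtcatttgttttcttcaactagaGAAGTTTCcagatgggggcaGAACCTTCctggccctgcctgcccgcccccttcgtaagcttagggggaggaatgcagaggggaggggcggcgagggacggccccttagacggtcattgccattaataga
Hspa8: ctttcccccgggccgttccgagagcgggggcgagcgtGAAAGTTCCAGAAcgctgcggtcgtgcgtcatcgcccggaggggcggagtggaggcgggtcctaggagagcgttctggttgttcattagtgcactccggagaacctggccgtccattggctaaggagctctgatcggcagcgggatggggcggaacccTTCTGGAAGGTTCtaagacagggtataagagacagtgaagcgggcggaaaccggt
The ER stress response element, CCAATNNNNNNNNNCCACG, began 43 bases before the start of Hspa5 and 65 bases before that of Xbp1, and 0.0657% of 33469 rat promoters held it in a window of this length. The unfolded protein response core, TGACGTG, stood 135 bases before the start of Hspa5 and was held by 1.54% of promoters. Inward heat shock dimers, GAANNTTC, began 129 and 109 bases before the start of Hspb1 and 213 and 50 bases before that of Hspa8, against 7.23% of promoters with at least 1. Outward dimers, TTCNNGAA, were held by 7.48% of promoters and occurred only in Hspa8, 208 and 55 bases before the start, each overlapping an inward dimer. The second form of the ER stress response element, ERSE-II, was in none of the 5 windows and in 0.0418% of promoters. The window of Ddit3 (chr7:65001445-65001694, plus strand) held no exact match to the searched letters. Only exact matches were counted in all windows, so a motif with a differing base would be missed, and its absence from Ddit3 is not shown. These matches describe letters in a reference sequence, and binding was not measured here.

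**Figure D1:**
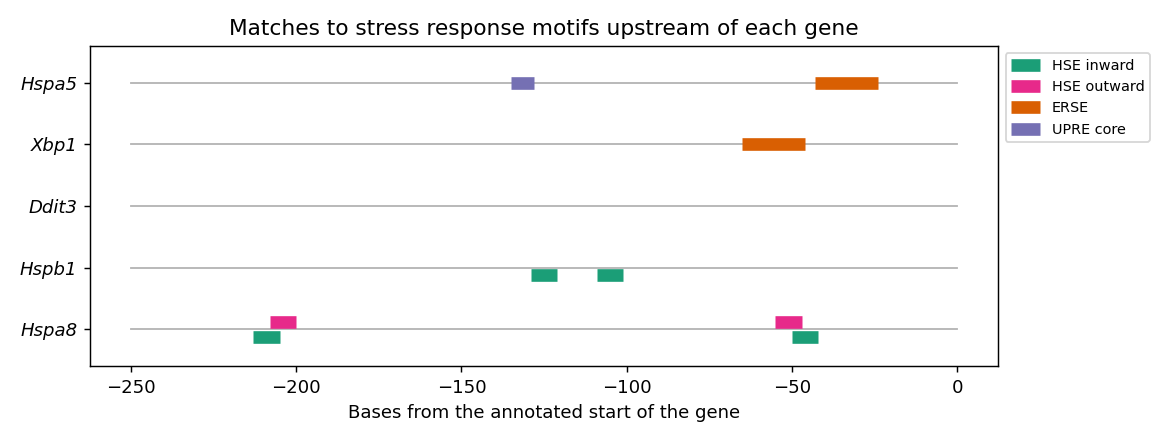
Positions of exact motif matches in the 250 bases before the annotated start of each gene (x axis, bases from the start, with 1 line per gene). Orange bars are the ER stress response element (ERSE), the purple bar is the core of the unfolded protein response element (UPRE), and green and pink bars are inward and outward heat shock dimers (HSE); the ERSE lies 43 bases before the start in Hspa5 and 65 bases in Xbp1, and Ddit3 has no bar.

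Total counts per library ranged from 10983887 to 68580194, with group medians of 24251735 and 26775961 in gastrocnemius at 20 and 22 months and of 19016187 and 16966393 in triceps. No pair of libraries within a group was alike within counting noise. Levels are given in CPM, a gene's counts relative to its library's total, with totals adjusted by the TMM method (a trimmed mean of log ratios), so values of 1 gene can be compared between libraries. Levels of different genes are not compared, since transcript lengths were not used here. A gene was called at an adjusted p under 0.01 in edgeR's two-sided quasi-likelihood test, with Benjamini-Hochberg adjustment over all genes tested, and differences are log2 ± SE.

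Xbp1 was the only member called between the muscles at the threshold used, with lower levels in gastrocnemius than in triceps in every animal. At 20 months, Xbp1 in gastrocnemius ran from 51.2 CPM (replicate 7) over a median of 65.5 to 78.2 CPM (replicate 1), with a mean of 64.7 ± 7.09 CPM (SD, n = 10). In triceps of the same animals, Xbp1 ran from 73.4 CPM (replicate 8) over a median of 86.2 to 98.2 CPM (replicate 5), with a mean of 85.2 ± 7.89 CPM (SD, n = 10). The groups met only at their edges, since 9 of 10 gastrocnemius libraries lay below all triceps libraries and only replicate 1 reached into their range. The difference for Xbp1, gastrocnemius minus triceps, was -0.39 ± 0.07 on the log2 scale (95% interval -0.53 to -0.25), or -23.6% in gastrocnemius relative to triceps, with an adjusted p of 0.000863 by edgeR. Within animals, the log2 difference of Xbp1 ran from -0.67 to -0.09 and was below 0 in 10 of 10.

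At 22 months, Xbp1 in gastrocnemius ran from 51.6 CPM (replicate 9) over a median of 61.5 to 71.3 CPM (replicate 8), with a mean of 60.5 ± 6.64 CPM (SD, n = 10). In triceps, Xbp1 ran from 70.8 CPM (replicate 7) over a median of 83.2 to 91.6 CPM (replicate 6), with a mean of 82.2 ± 6.73 CPM (SD, n = 10). Again 9 of 10 gastrocnemius libraries lay below all triceps libraries, and the exception, replicate 8, passed the lowest triceps library by a small step. The difference of Xbp1 was -0.43 ± 0.07 (95% interval -0.57 to -0.30), or -26.0%, with an adjusted p of 3.61e-05 by edgeR. Gastrocnemius was lower in 10 of 10 animals, with log2 differences from -0.75 to -0.13.

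Among the 5 genes, 1 was called in this comparison at each age, beside 3.76% of the 12426 genes tested at 20 months and 20.3% of the 12565 tested at 22 months. In size, the Xbp1 difference was not extreme, as 13.7% of genes at 20 months and 20.8% at 22 months differed by more in either direction. The median difference of the 5 genes was 0.11 at 20 months and 0.13 at 22 months, against 0.00 and 0.01 over all genes tested. The size of the Xbp1 difference depended on the scaling. When raw library totals replaced TMM, the median of all genes moved to 0.11 at 20 months and 0.19 at 22 months, and the Xbp1 difference to -0.28 (adjusted p = 0.00842 by edgeR) and -0.25 (adjusted p = 0.00669 by edgeR), which kept the direction and the call.

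**Figure D2:**
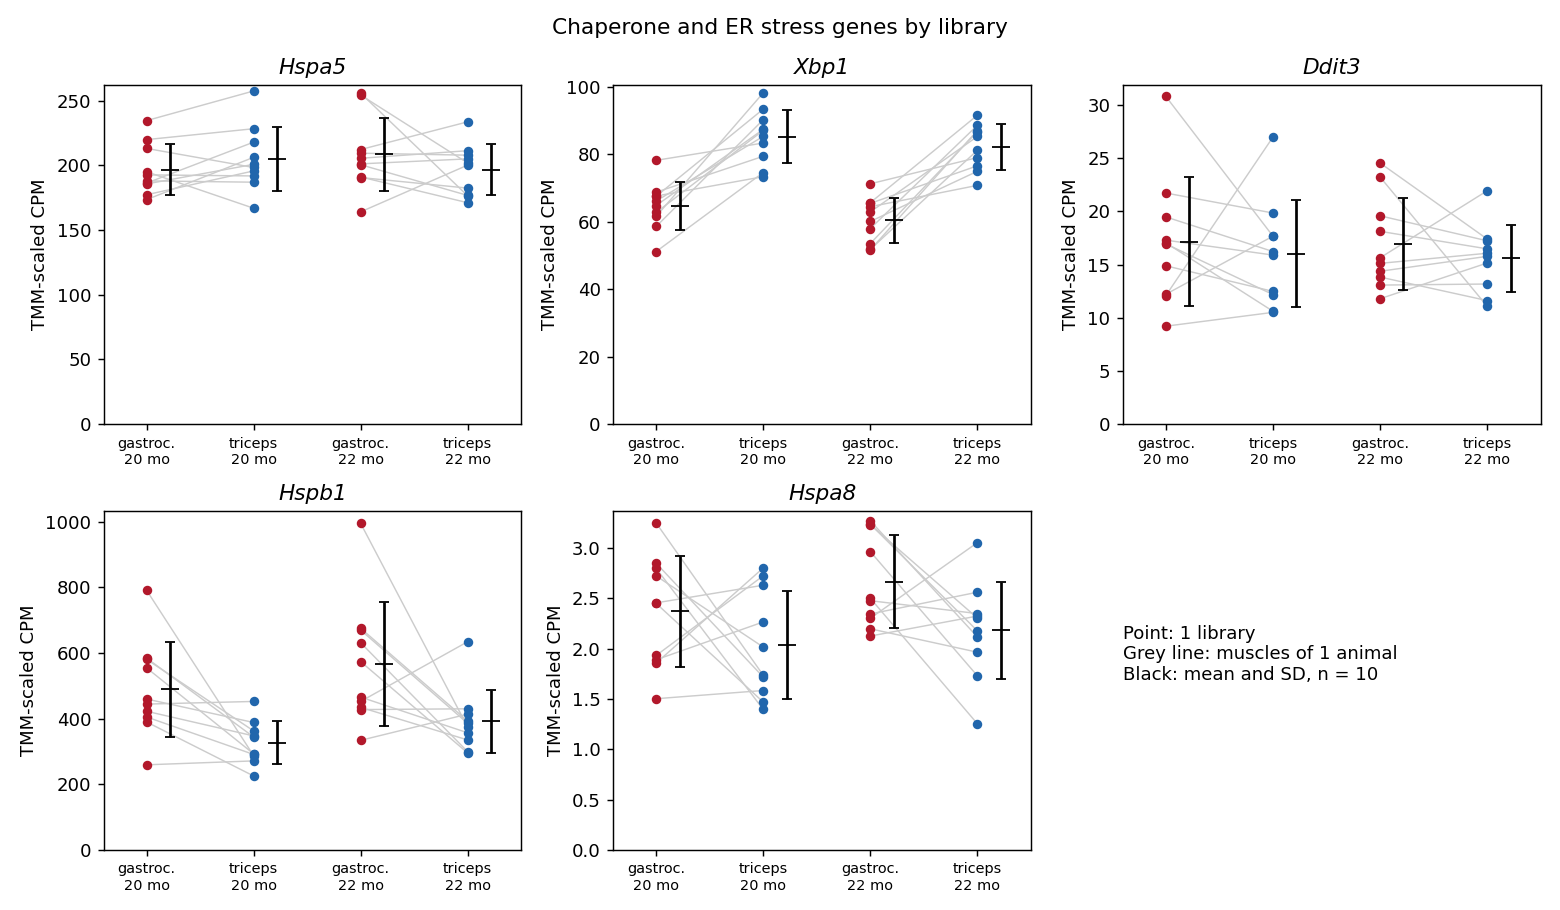
TMM-scaled CPM (y axis, from 0) of each gene in each library, by muscle and age (gastrocnemius red, triceps blue); grey lines join both muscles of an animal, and black marks give the mean ± SD of 10 libraries. Xbp1 rises from gastrocnemius to triceps along every grey line, and its groups overlap only at their edges. The groups of the other 4 genes overlap more.

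Hspb1 had higher mean levels in gastrocnemius than in triceps at both ages, but neither difference was called at the threshold used. At 20 months, Hspb1 in gastrocnemius ran from 259 CPM (replicate 1) over a median of 452 to 792 CPM (replicate 7), with a mean of 489 ± 145 CPM (SD, n = 10). In triceps, Hspb1 ran from 225 CPM (replicate 5) over a median of 318 to 452 CPM (replicate 10), with a mean of 326 ± 65.8 CPM (SD, n = 10). The groups overlapped, with 5 of 10 gastrocnemius libraries above all triceps libraries and 1 triceps library below all of gastrocnemius. The Hspb1 difference was 0.60 ± 0.16 (95% interval 0.27 to 0.93), which edgeR gave an adjusted p of 0.0188, and gastrocnemius was higher in 8 of 10 animals.

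At 22 months, Hspb1 in gastrocnemius ran from 334 CPM (replicate 7) over a median of 520 to 995 CPM (replicate 2), with a mean of 566 ± 190 CPM (SD, n = 10). In triceps, Hspb1 ran from 295 CPM (replicate 9) over a median of 380 to 634 CPM (replicate 3), with a mean of 392 ± 96.4 CPM (SD, n = 10). Only 3 gastrocnemius libraries lay above all triceps libraries at this age, because replicate 3 of triceps stood well above the rest of its group. The Hspb1 difference was 0.54 ± 0.17 (95% interval 0.18 to 0.90), which edgeR gave an adjusted p of 0.0191, and gastrocnemius was higher in 7 of 10 animals. Leaving out 1 animal changed this call. Without replicate 1 at 20 months, the Hspb1 difference was 0.65 (adjusted p = 0.00714 by edgeR). Without replicate 3 at 22 months it was 0.70 (adjusted p = 0.00382 by edgeR), and without replicate 7 it was 0.63 (adjusted p = 0.00985 by edgeR). DESeq2 called Hspb1 at both ages, with adjusted p-values of 0.00388 and 0.00788. Over all alternatives, the adjusted p of Hspb1 ran from 0.00388 to 0.0570 at 20 months and from 0.00382 to 0.0640 at 22 months.

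Hspa5, the ER chaperone, had close mean levels in all 4 groups under TMM, and this depended on the scaling. In gastrocnemius at 20 months it ran from 174 over a median of 190 to 235 CPM, with a mean of 197 ± 19.7 CPM (SD, n = 10). In gastrocnemius at 22 months, Hspa5 ran from 164 over 203 to 256 CPM, with a mean of 209 ± 28.1 CPM (SD, n = 10). In triceps, Hspa5 ran from 167 over 200 to 258 CPM at 20 months, with a mean of 205 ± 24.9 CPM (SD, n = 10), and from 171 over 201 to 234 CPM at 22 months, with a mean of 197 ± 19.7 CPM (SD, n = 10). Every group overlapped every other, and no neighbours in the order of these means differed beyond their spread. Between muscles, the Hspa5 difference was -0.05 ± 0.08 at 20 months (95% interval -0.22 to 0.11, adjusted p = 0.746 by edgeR) and 0.10 ± 0.08 at 22 months (95% interval -0.08 to 0.27, adjusted p = 0.394 by edgeR). Gastrocnemius was the higher muscle in 4 of 10 animals at 20 months and in 6 of 10 at 22 months. Under library totals, where the median of all genes moved as given above, the muscle difference of Hspa5 was 0.04 ± 0.10 at 20 months (adjusted p = 0.809 by edgeR) and 0.30 ± 0.11 at 22 months (adjusted p = 0.0342 by edgeR), neither of which was called.

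Ddit3, the pro-apoptotic factor, varied more between animals than between groups. In gastrocnemius, Ddit3 ran from 9.21 over a median of 17.0 to 30.8 CPM at 20 months, with a mean of 17.2 ± 6.07 CPM (SD, n = 10), and from 11.8 over 15.4 to 24.6 CPM at 22 months, with a mean of 16.9 ± 4.34 CPM (SD, n = 10). In triceps, Ddit3 ran from 10.5 over 16.1 to 27.0 CPM at 20 months, with a mean of 16.0 ± 5.03 CPM (SD, n = 10), and from 11.1 over 15.9 to 21.9 CPM at 22 months, with a mean of 15.6 ± 3.15 CPM (SD, n = 10). The 4 groups overlapped throughout, and the means differed by far less than 1 SD. Between muscles, the Ddit3 difference was 0.11 ± 0.19 at 20 months (95% interval -0.29 to 0.51, adjusted p = 0.764 by edgeR) and 0.13 ± 0.14 at 22 months (95% interval -0.16 to 0.42, adjusted p = 0.499 by edgeR). Gastrocnemius was higher in 7 of 10 animals at 20 months and in 5 of 10 at 22 months. Averaged over the libraries of a group, counting error was 4.73% to 6.11% of the Ddit3 level, against a spread between animals of 20.2% to 35.4%.

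The gene given the name Hspa8 had only 19 to 132 counts per library, although Hsc70 is known as an abundant chaperone of most tissues. RefSeq names 33 rat pseudogenes with the stem Hspa8, and 0 for the other 4 genes. How the counting treated reads shared with such copies is not given in the sources used here, so the level of Hspa8 is uncertain, and the part of such copies in its low counts was not tested. In gastrocnemius, Hspa8 ran from 1.50 over 2.45 to 3.25 CPM at 20 months, with a mean of 2.37 ± 0.554 CPM (SD, n = 10), and from 2.13 over 2.49 to 3.27 CPM at 22 months, with a mean of 2.67 ± 0.461 CPM (SD, n = 10). In triceps, Hspa8 ran from 1.40 over 1.88 to 2.80 CPM at 20 months, with a mean of 2.03 ± 0.537 CPM (SD, n = 10), and from 1.25 over 2.24 to 3.05 CPM at 22 months, with a mean of 2.18 ± 0.481 CPM (SD, n = 10). The groups overlapped in both muscles. Between muscles, the Hspa8 difference was 0.23 ± 0.17 at 20 months (95% interval -0.12 to 0.57, adjusted p = 0.424 by edgeR) and 0.29 ± 0.14 at 22 months (95% interval 0.00 to 0.58, adjusted p = 0.109 by edgeR). Averaged over the libraries of a group, counting error was 11.6% to 16.7% of the Hspa8 level, against a spread between animals of 17.3% to 26.4%.

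**Figure D3:**
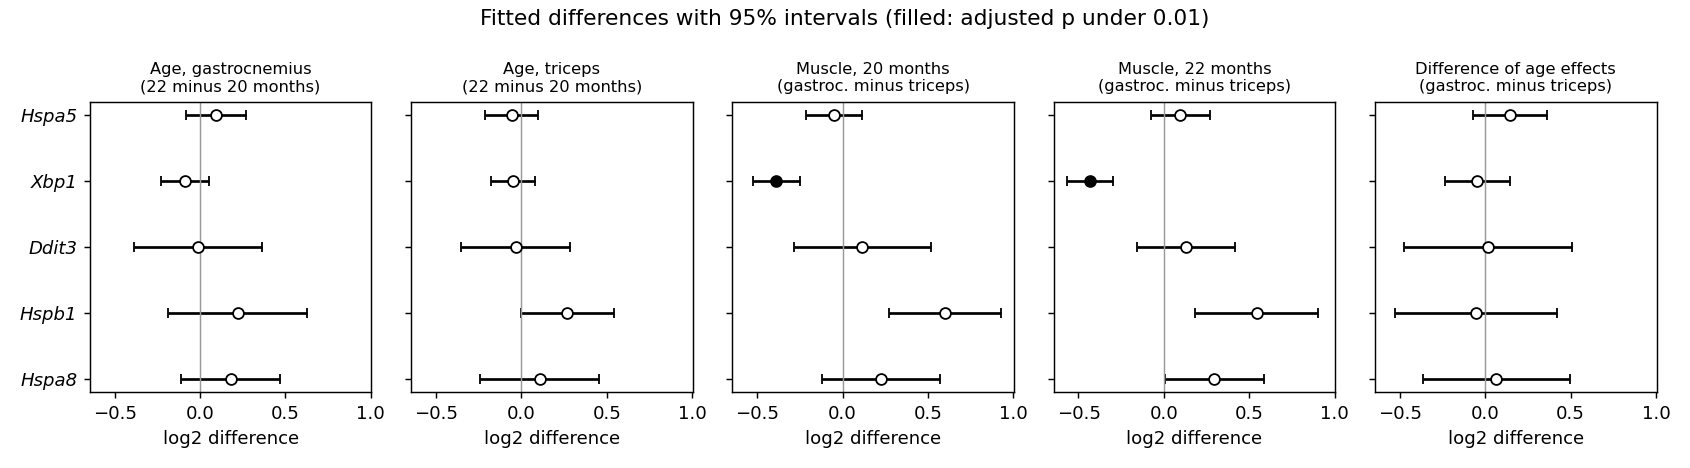
Fitted log2 differences (x axis) of each gene in the 5 comparisons, with 95% intervals; filled points have an adjusted p under 0.01 in edgeR's test. Filled points are Xbp1 between muscles at 20 months (-0.39) and at 22 months (-0.43), and the age intervals of all 5 genes include 0.

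**Figure D4:**
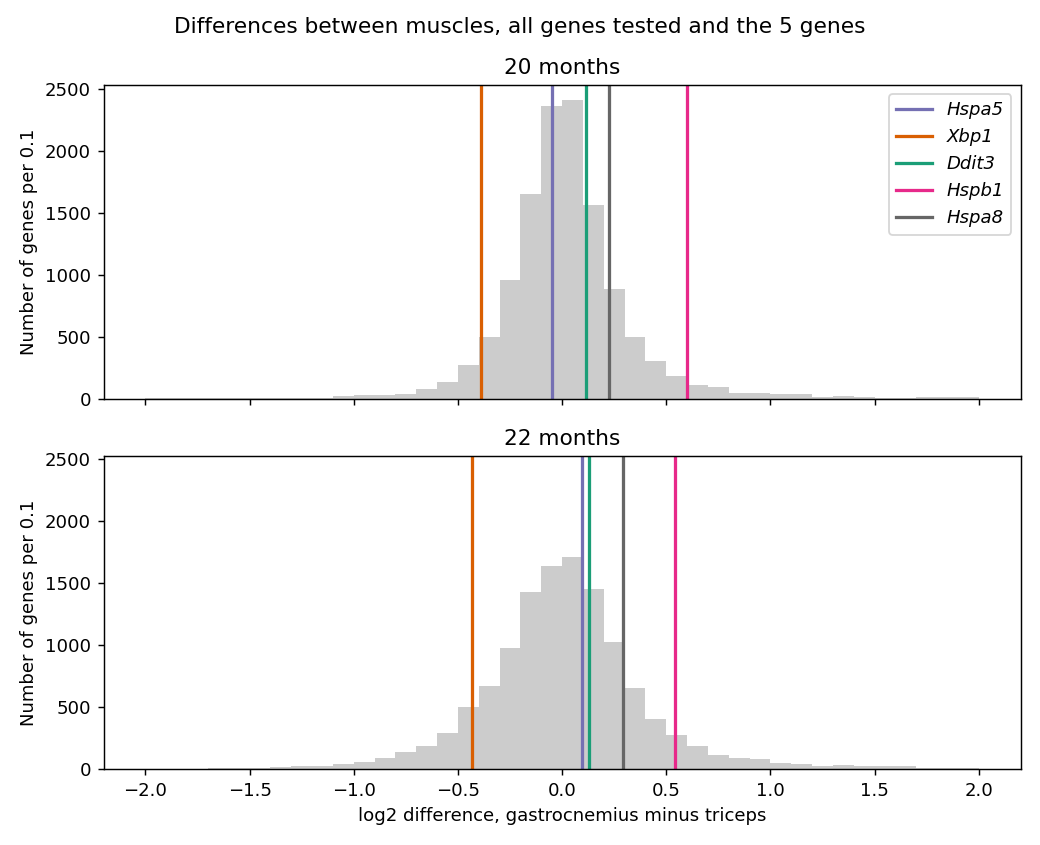
Number of genes (y axis, bins of 0.1) by log2 difference between gastrocnemius and triceps (x axis, shown from -2 to 2) at 20 and 22 months, with a vertical line for each of the 5 genes. Xbp1 lies on the lower flank at both ages and Hspb1 on the upper flank, and 13.7% and 20.8% of genes differed by more than Xbp1.

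Next, the levels were compared between ages within each muscle, to ask whether stress genes move from 20 to 22 months. None of the 5 genes was called in either muscle, and neither was any other gene (0% of 12659 genes tested in gastrocnemius and 0% of 12345 in triceps by edgeR). At an unadjusted p under 0.05, edgeR counted 1307 genes in gastrocnemius and 1084 in triceps, while DESeq2 called 1 gene in gastrocnemius and 0 in triceps, with 1460 and 1149 at an unadjusted p under 0.05. For limma-voom these counts were 0 called in both muscles, with 1408 and 1076 at an unadjusted p under 0.05. The median difference of the 5 genes was 0.10 in gastrocnemius and -0.03 in triceps, against 0.01 over all genes in both.

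For Hspb1 the mean was higher at 22 months in both muscles, by 0.22 ± 0.20 in gastrocnemius (95% interval -0.18 to 0.63, adjusted p = 0.680 by edgeR) and by 0.27 ± 0.13 in triceps (95% interval -0.00 to 0.54, adjusted p = 0.566 by edgeR). In triceps the lowest library at 22 months, with 295 CPM, still stood below the 20-month median of 318 CPM, and the ages overlapped. Without triceps replicate 3 at 22 months, the highest library, the Hspb1 difference in triceps was at its smallest over animals left out, 0.16. Without gastrocnemius replicate 2 at 22 months, the highest library there, the difference in gastrocnemius was 0.0890 (adjusted p = 0.909 by edgeR), again the smallest over animals left out. For Xbp1 the age difference was -0.09 ± 0.07 in gastrocnemius (95% interval -0.23 to 0.05, adjusted p = 0.633 by edgeR) and -0.05 ± 0.06 in triceps (95% interval -0.18 to 0.08, adjusted p = 0.854 by edgeR). Under TMM, the interval places an age change of Xbp1 in gastrocnemius between -14.7% and 3.78%, while library totals gave a difference of 0.04 ± 0.07.

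Hspa5 differed between ages by 0.10 ± 0.08 in gastrocnemius (95% interval -0.08 to 0.27, adjusted p = 0.683 by edgeR) and by -0.06 ± 0.08 in triceps (95% interval -0.21 to 0.10, adjusted p = 0.857 by edgeR). Under library totals, which moved the median of all genes to 0.14 in gastrocnemius and 0.06 in triceps, the age difference of Hspa5 was 0.24 ± 0.12 in gastrocnemius (adjusted p = 0.270 by edgeR) and -0.01 ± 0.10 in triceps (adjusted p = 0.970 by edgeR). Ddit3 differed by -0.01 ± 0.18 in gastrocnemius (95% interval -0.39 to 0.37, adjusted p = 0.988 by edgeR) and by -0.03 ± 0.15 in triceps (95% interval -0.35 to 0.29, adjusted p = 0.973 by edgeR). Under TMM, changes of Ddit3 of up to 28.8% upward in gastrocnemius stay within the interval. Hspa8 differed by 0.18 ± 0.14 in gastrocnemius (95% interval -0.11 to 0.47, adjusted p = 0.636 by edgeR) and by 0.11 ± 0.17 in triceps (95% interval -0.24 to 0.45, adjusted p = 0.883 by edgeR).

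Whether the age differences themselves differed between the muscles was tested over all 40 libraries as the difference of both, gastrocnemius minus triceps. Muscles of the same animal were not paired in this fit. None of the 5 genes was called, as was no other of the 12980 genes (0%) by edgeR, of which 389 had an unadjusted p under 0.05. DESeq2 and limma-voom also called 0 genes, with 429 and 403 at an unadjusted p under 0.05. The value was -0.05 ± 0.10 for Xbp1 (95% interval -0.24 to 0.15) and 0.14 ± 0.11 for Hspa5 (95% interval -0.07 to 0.36). It was -0.05 ± 0.24 for Hspb1 (95% interval -0.53 to 0.42), 0.02 ± 0.24 for Ddit3 (95% interval -0.48 to 0.51) and 0.07 ± 0.21 for Hspa8 (95% interval -0.37 to 0.50). All 5 had an adjusted p of 0.999 by edgeR.

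The genes fell apart in how much animals of a group differed. The coefficient of variation (CV, the SD as a share of the mean) of Xbp1 was 10.9% and 11.0% in gastrocnemius at 20 and 22 months and 9.25% and 8.19% in triceps. Between 81.5% and 93.8% of all genes had a larger CV than Xbp1, so by CV it was among the steadier transcripts. These shares were not matched for counts, and mean counting error was 2.44% to 2.70% for Xbp1 but 11.6% to 16.7% for Hspa8. Hspa5 had CVs of 10.0% to 13.5%, and between 69.9% and 87.5% of all genes had a larger CV. Ddit3 had the largest CV of the 5 at 20 months in both muscles, with CVs of 35.4% and 25.6% in gastrocnemius and 31.4% and 20.2% in triceps. Hspb1 had CVs of 29.7% and 33.6% in gastrocnemius and of 20.2% and 24.6% in triceps, so its highest library held 3.06 times the lowest in gastrocnemius at 20 months. The median CV of all genes lay between 17.0% and 18.6% in the 4 groups.

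Animals high in a gene in one muscle were not found to be high in the other. Over 20 animals, Pearson's r between both muscles was 0.207 for Hspa5 (Spearman's rho 0.221), 0.150 for Ddit3 (rho 0.263), -0.0468 for Xbp1 (rho -0.116), 0.0507 for Hspb1 (rho 0.0947) and -0.209 for Hspa8 (rho -0.341). Permutation p-values of r ran from 0.376 for Hspa8 to 0.843 for Xbp1, and all 5 were 0.843 after adjustment over these 5 relations. Without the 2 animals farthest from the gastrocnemius median, r was 0.484 for Hspa5, -0.449 for Hspa8, -0.111 for Ddit3, -0.164 for Xbp1 and -0.168 for Hspb1, with adjusted permutation p-values of 0.160 or more. Within the 10 animals of an age, r of Hspa5 was 0.565 at the younger age (permutation p = 0.0892) and 0.0181 at the older (permutation p = 0.959), while r of Hspb1 was 0.215 and -0.286.

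Between genes, 10 pairs were examined in each muscle, 20 relations in all, of which 1 in gastrocnemius and 0 in triceps had an adjusted p of r under 0.05 under TMM, against 4 and 1 under library totals. In gastrocnemius, animals with more Hspb1 had less Xbp1, with r -0.716 over 20 animals (permutation p = 0.00041, adjusted p = 0.0082) and rho -0.606 (permutation p = 0.0051, adjusted p = 0.0948). The share of all gene pairs with an r of such size was not computed, so these p-values do not set this pair apart from others. The ends of this relation were replicate 7 at 20 months, with the lowest Xbp1 (51.2 CPM) and 792 CPM of Hspb1, and replicate 1 at 20 months, with the highest Xbp1 (78.2 CPM) and the lowest Hspb1 (259 CPM). Without the 2 animals farthest from the Xbp1 median, replicate 7 at 20 months and replicate 9 at 22 months, r was -0.693. Replicate 1 at 20 months, the other end, stayed in that value. Within ages, r was -0.799 for the younger animals (permutation p = 0.00975) and -0.598 for the older (permutation p = 0.068), and neither passed the adjustment over 20 relations (adjusted p = 0.195 and 0.375). In triceps, r was -0.509 (permutation p = 0.0211, adjusted p = 0.0843) and rho -0.400 (permutation p = 0.0829).

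The gastrocnemius relation between Xbp1 and Hspb1 did not hold under the other scaling. Scaled by raw library totals, r was 0.0668 in gastrocnemius (permutation p = 0.780) and -0.406 in triceps (permutation p = 0.0740). Under library totals, 8 of 10 pairs had an r above 0 in each muscle, against 5 of 10 under TMM. Of the other 9 pairs in gastrocnemius, r under TMM ran from -0.511, for Ddit3 with Xbp1, to 0.550, for Hspa5 with Hspb1, with adjusted permutation p-values of 0.0843 or more. In triceps the other 9 pairs ran from -0.301 to 0.243 under TMM. Under library totals, r of Hspa5 with Hspb1 in gastrocnemius was 0.802 (rho 0.731; adjusted permutation p of r = 0.0006). In that muscle r was then also 0.576 for Ddit3 with Hspb1, 0.570 for Hspb1 with Hspa8 and 0.555 for Hspa5 with Hspa8, and in triceps it was 0.539 for Hspa5 with Ddit3, each with an adjusted permutation p of 0.0476. Without TMM, all genes of a library share its uncorrected factor, which can raise r between any of them, and its part here was not tested. These p-values set r against 0, and the share of all gene pairs with such an r was not computed.

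**Figure D5:**
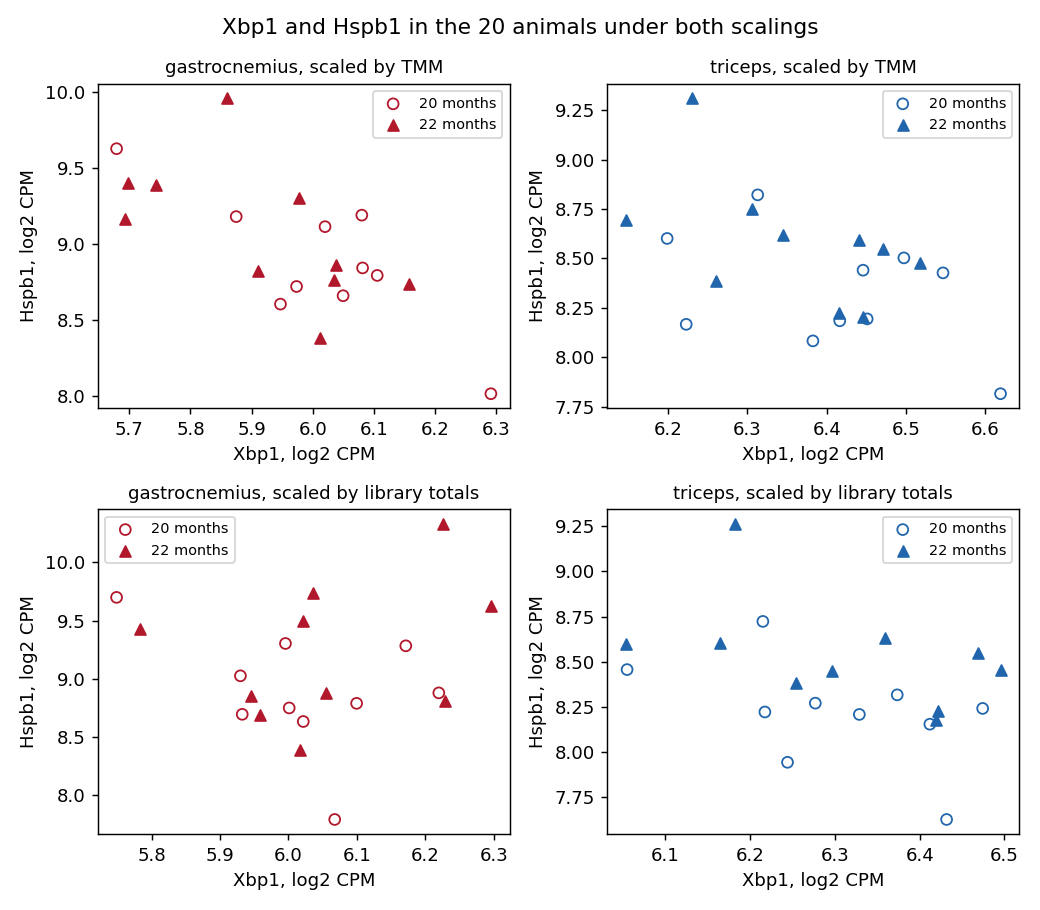
Log2 CPM of Hspb1 (y axis) against Xbp1 (x axis) in 20 animals, by muscle (columns) and scaling (rows), with open circles at 20 months and filled triangles at 22 months. In gastrocnemius the points fall from upper left to lower right under TMM (r -0.716) and show no slope under library totals (r 0.0668).

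To place the 5 genes in the main axis of variation between animals, principal component analysis was run within each muscle on all genes but these 5, after the values had been seen. The first component (PC1) carried 33.4% (gastrocnemius) and 22.7% (triceps) of the variance, its sign is arbitrary, and it was turned so that the 22-month animals had the higher mean. PC1 was built from other genes of the same libraries, and the share of all genes with an r of such size was not computed. The permutation p-values therefore set r against 0 and do not set these 5 genes apart from others. In gastrocnemius, Xbp1 fell along PC1 with r -0.811 (rho -0.795; adjusted permutation p = 1e-04 over 10 relations), and r was -0.787 without the 2 farthest animals, -0.823 within 20 months and -0.772 within 22 months. Hspa5 rose along it with r 0.711 (rho 0.641; adjusted permutation p = 0.00153), but r was 0.509 without the 2 farthest animals, 0.385 within 20 months and 0.873 within 22 months. Hspb1 rose along it with r 0.717 (rho 0.647; adjusted permutation p = 0.00105), with r 0.626 without those animals, 0.595 within 20 months and 0.781 within 22 months. Xbp1 and Hspb1 thus ran in opposite directions along this axis, and their relation given above was not tested apart from it. Under library totals PC1 was computed anew from the values so scaled, and its sign was set to follow the PC1 under TMM. With that other axis r was 0.923 for Hspa5, 0.836 for Hspb1 and 0.252 for Xbp1.

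In triceps, Hspa5 had r -0.670 with PC1 (rho -0.618; adjusted permutation p = 0.00325) and Ddit3 r -0.568 (rho -0.474; adjusted permutation p = 0.0185). Without the 2 farthest animals, replicates 7 and 10 at 20 months, r was -0.428 for Hspa5 (permutation p = 0.0779; rho -0.505, permutation p = 0.0343) and -0.354 for Ddit3 (permutation p = 0.150; rho -0.284, permutation p = 0.252), so neither r then passed 0.05. Within ages, r of Hspa5 was -0.841 at 20 months and -0.328 at 22 months, and r of Ddit3 was -0.610 and -0.481. With the PC1 computed anew under library totals, r was -0.836 for Hspa5 and -0.723 for Ddit3, with adjusted permutation p-values of 1e-04 and 0.000825. The components of the 2 muscles are separate axes, and their signs cannot be set against each other.

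For each of the 5, the gene with the most similar profile over the 40 libraries was sought among 9676 genes, by Pearson's r of log2 CPM, as a description across groups. The nearest to Xbp1 was ENSRNOG00000007632, with r 0.903 (rho 0.888). The nearest to Hspb1 was ENSRNOG00000003917, with r 0.844 (rho 0.742). For Hspa5 it was ENSRNOG00000026963, with r 0.798 (rho 0.694), and for Ddit3 it was ENSRNOG00000033787, with r 0.774 (rho 0.784). Hspa8 had no such close neighbour, the nearest being ENSRNOG00000026316 with r 0.586 (rho 0.525). Its counting error of 11.6% to 16.7% can lower r with any gene. These libraries share animals, muscles and scaling, and the identifiers could not be paired with gene symbols here.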

How the data were processed

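RNA came from a miRNeasy kit, and libraries from the TruSeq RNA Library Preparation Kit v2, which does not mark strand, so reads of overlapping and antisense genes cannot be told apart. The authors deposited whole-number read counts per gene, without normalization, in 1 table of 40 columns, each matched to a library by animal number and muscle. The submitters' processing notes name CASAVA 1.8, STAR 2.3.0e, HTSeq and the genome Rnor_6.0. No source used here gives the annotation release or the counting mode. For its own rat values, the study used kallisto, another route.

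Of 47357 genes in the reference table, 0 carried an Ensembl identifier. Names of the 5 genes come from the selection rule, and other chaperone and stress genes and the cell type markers chosen by symbol, muscle fibre genes included, were not analysed here, so tissue labels could not be checked against markers.

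The test was run with edgeR 4.0.16 in R 4.3.3: genes at 1 CPM or more in 10 libraries of a fit, TMM, quasi-likelihood F-test, Benjamini-Hochberg over all genes. All 5 genes passed this filter in every comparison. Each comparison used its 20 libraries, and the difference of the age effects all 40. Alternatives were DESeq2 1.42.0, limma-voom (limma 3.58.1), other scalings, no filter, a threshold of 0.05, a block for the animal or replicate number, and each animal left out. Correlations used log2 CPM with a prior count of 2 and two-sided permutation tests of 100000 resamples, of which the smallest possible p is 1e-05. The test was tried on simulated data with 200 changed genes, but the outcome is not reported here, so its sensitivity is not shown. Counting errors given follow from a gene's counts per library and cover counting only, not the spread between animals. The named genes are the 5 members and, for each, the gene of the highest r among genes with a mean of 5 CPM or more. The members and lists were chosen with earlier results of these data known. No batch or sequencing date is given.

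The labels number the animals, and that number pairs gastrocnemius with triceps. After group means were subtracted, the median r between both muscles of an animal was 0.158, with 12 of 20 over 0.1 and a range from -0.326 to 0.632. For different animals with equal replicate numbers at both ages, the median was 0.0805 in gastrocnemius and 0.100 in triceps, with 5 of 10 over 0.1 in each. The pairing therefore rests on the labels.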

Additional observations from a re-analysis of the deposited data

Results flagged for a closer look

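Of 24 sets of 10 values examined, 20 were levels of the 5 genes and 4 were total counts. By Dixon's gap test, 3 sets had an extreme value standing apart from the others. Chance gives about 5% of sets where values are normally distributed and both ends are tested. Total counts were tested at the high end only, and no values were put on a log scale. Hspb1 in gastrocnemius at 22 months reached 995 CPM in replicate 2, with the next library at 675 CPM, a gap of 0.483 of the range. Hspb1 in triceps at 22 months reached 634 CPM in replicate 3, with the next library at 430 CPM, a gap of 0.603 of the range. These are different animals, and the triceps of replicate 2 held 374 CPM and the gastrocnemius of replicate 3 held 452 CPM of Hspb1. The triceps library of replicate 4 at 20 months had 68580194 counts, with the next at 39910210, and its Xbp1 and Hspb1 levels, 90.3 and 363 CPM, lay inside their group.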

How the results depend on the processing

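Of 595 recomputed differences of the 5 genes, 553 kept direction and side of the threshold, 34 changed sign and 8 passed the threshold where the reported value did not. None of the sign changes touched a called value, and the cause was not tested. Xbp1 stayed called between muscles under every alternative run, with values of -0.42 to -0.36 at 20 months and -0.46 to -0.39 at 22 months when animals were left out. With library totals, the age difference of Xbp1 was 0.0399 in gastrocnemius and 0.0104 in triceps, that of Ddit3 0.13 and 0.0144, the muscle difference of Hspa5 at 20 months 0.0436, and the difference of the age effects 0.0295 for Xbp1 and 0.0532 for Hspb1. With limma-voom, Ddit3 differed between ages by 0.0304 in gastrocnemius and 0.000165 in triceps.

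For Hspb1 between muscles, DESeq2 gave 0.59 at 20 months and 0.53 at 22 months, library totals gave 0.77 at 22 months (adjusted p = 0.00391), and the threshold of 0.05 called 0.60 and 0.54; in each of these cases 2 of the 5 genes were called in place of 1. Its values without single animals ran from 0.49 to 0.68 at 20 months and from 0.41 to 0.70 at 22 months, with 1 to 2 members called at both ages. Without single animals, the age difference of Ddit3 ran from -0.0903 to 0.12 in gastrocnemius and from -0.0975 to 0.0754 in triceps, and the difference of the age effects from -0.12 to 0.14 for Ddit3, -0.0775 to 0.00625 for Xbp1, -0.19 to 0.0811 for Hspb1 and -0.0311 to 0.17 for Hspa8.

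With the animal as a replicate block, the muscle difference of Xbp1 was -0.39 (adjusted p = 0.0032) and -0.44 (adjusted p = 0.000488), and that of Hspb1 was 0.56 (adjusted p = 0.0189) and 0.51 (adjusted p = 0.038), so no call of the 5 genes changed. Equal replicate numbers at both ages are different animals, with a median r of 0.0805 in gastrocnemius and 0.1 in triceps, and with that number as a replicate block Ddit3 differed between ages by 0.0207 in gastrocnemius.

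For relations between both muscles, r of Xbp1 was 0.0712 within 20 months and 0.207 under library totals, r of Hspb1 was -0.286 within 22 months and -0.168 without the 2 farthest animals, and r of Ddit3 was -0.111 without the 2 farthest animals. Under library totals, r of Xbp1 in gastrocnemius was 0.0668 with Hspb1 and 0.252 with the PC1 computed anew under that scaling.

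Over all genes, the count called between muscles was 467 at 20 months, against 878 by DESeq2 and 1203 at the threshold of 0.05, and 206, 215, 210, 276 and 238 without replicates 3, 4, 5, 8 and 9. At 22 months it was 2552, against 4265 at the threshold of 0.05. Higher and lower calls split 297 to 170 at 20 months and 1318 to 1234 at 22 months, and 323 to 102 and 2823 to 636 under library totals.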
